A study of Mus musculus with 16 samples.

Results

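The levels of 7 complement genes were followed through the immune cells of mouse tumors and spleens: the C1q chain genes *C1qa*, *C1qb* and *C1qc*, the anaphylatoxin receptor genes *C3ar1* and *C5ar1*, and the component genes *C3* and *Cfb*. These 7 genes, out of 24495 gene symbols in the count tables, were matched by symbol, and all 7 had UMIs. *Aire*+/+ and *Aire*-/- mice of the C57BL/6 background carrying MC38 colon carcinoma tumors received anti-PD1 or an isotype control antibody, and tissues were taken on day 19. Tumor and spleen cells sorted for CD45 gave 8 of the 16 libraries of the series, with 1 library per tissue and condition, and several mice were pooled per library. The mice were female and 8 weeks old. Because each condition had 1 library, no difference between conditions was tested, and every interval below covers counting error only.

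*Aire* itself was near absent: the tumor libraries held 0 and 2 *Aire* UMIs in *Aire*+/+ mice (isotype, then anti-PD1) and 1 and 0 in *Aire*-/- mice, and the spleen libraries 2 and 5, and 4 and 0. The tags counted may lie outside the deleted stretch of the gene, so the counts check neither genotype. Lists of 4 values below start with *Aire*+/+ isotype, go on with *Aire*+/+ anti-PD1 and then *Aire*-/- isotype, and end with *Aire*-/- anti-PD1.

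C1q is the recognition part of the first component of the classical complement pathway, and it is built from 3 chains encoded by *C1qa*, *C1qb* and *C1qc*. Most components of complement are made by the liver, but C1q is made largely by macrophages and dendritic cells, and it is widely used as a mark of tissue and tumor macrophages. *C3* encodes the component on which all activation pathways meet, *Cfb* the factor whose cleaved form is the protease of the alternative pathway, and *C3ar1* and *C5ar1* the receptors for the small fragments released from C3 and C5, which act on myeloid cells.

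The 4 tumor libraries kept 2930, 2208, 1856 and 2075 cells with 38930018, 28760725, 24639380 and 23282801 UMIs, and the 4 spleen libraries kept 2095, 2088, 2023 and 2393 cells with 12131829, 10927395, 11179230 and 12618100 UMIs. Any 2 of the libraries shared 3 to 16 cell barcodes, at most 0.781% of the smaller one. Cells were sorted into exclusive gates by the UMIs of 4 genes that are not among the 7: the Lyz2+Ms4a7+ gate needed at least 10 UMIs of *Lyz2*, a lysozyme gene of myeloid cells, and at least 1 of *Ms4a7*, a gene of macrophages. The Lyz2+Ms4a7- gate needed the same *Lyz2* and 0 *Ms4a7*, the T gate at least 1 UMI of *Cd3e* and the B gate at least 2 UMIs of *Cd79a*. Cells that met more than one of the *Lyz2*, *Cd3e* and *Cd79a* limits were set apart as mixed. The Ms4a7 alone gate took cells that met none of these limits and held at least 2 *Ms4a7* UMIs, so a cell with *Cd3e* and *Ms4a7* but little *Lyz2* counted in the T gate. In tumors the Lyz2+Ms4a7+ gate held 872, 616, 351 and 109 cells, which is 29.8%, 27.9%, 18.9% and 5.25% of each library. The Ms4a7 alone gate held 501, 371, 230 and 75 tumor cells (17.1%, 16.8%, 12.4% and 3.61%), the Lyz2+Ms4a7- gate 622, 414, 485 and 422, and the T gate 357, 378, 349 and 944. Both gates that need *Ms4a7* were smallest in the *Aire*-/- anti-PD1 tumor library, where the T gate was largest.

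All 6 macrophage marker genes (*Adgre1*, *Csf1r*, *Mrc1*, *Apoe*, *Cd68* and *Msr1*) had UMIs in the Lyz2+Ms4a7+ gate of every tumor library, with *Apoe* highest, and together reached 4807, 6060.0, 4193 and 3577 CPM (UMIs scaled to all UMIs of the gate). The same list reached 2084, 2352, 2166 and 2224 CPM in the Lyz2+Ms4a7- gate. The 7 monocyte markers reached 2778, 3466, 4332 and 5653 CPM in the Lyz2+Ms4a7+ gate, led by *Ly6c2*, and 7274, 7972, 7805 and 8010 CPM in the Lyz2+Ms4a7- gate, led by *Plac8*. The T cell markers summed to at most 8.34 CPM and the B cell markers to at most 23.2 CPM in these tumor gates.

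Among the CD45+ cells from tumors, the C1q genes were highest in the gates that need *Ms4a7*. In the Lyz2+Ms4a7+ gate *C1qa* stood at 2862, 3241, 2522 and 1757 CPM, *C1qb* at 3641, 3905, 3361 and 2711 CPM, and *C1qc* at 2262, 2430, 2065 and 1494 CPM. In the Lyz2+Ms4a7- gate of the same libraries *C1qa* stood at 248.8, 311.7, 256.8 and 132.7 CPM, *C1qb* at 479.9, 499.9, 471.1 and 313.7 CPM, and *C1qc* at 224.2, 241.7, 227.1 and 136.1 CPM. The ranges of the gates did not overlap for any of these chains. Compared within each of the 4 tumor libraries, the Lyz2+Ms4a7+ gate was higher by a log2 fold of 3.30 for *C1qa* (SE 0.08, adjusted p = 3.89e-11), 2.78 for *C1qb* (SE 0.07, adjusted p = 3.89e-11) and 3.15 for *C1qc* (SE 0.07, adjusted p = 3.49e-11), each higher in 4 of 4 libraries. All 7 genes passed the count filter, and 6 of the 7 were higher in the Lyz2+Ms4a7+ gate at an adjusted p under 0.05, beside 27.3% of the 10357 genes tested, while 1 of the 7, *C3*, was lower, beside 26.9%. Without the TMM factors of the fit, an alternative chosen after seeing the data, these calls held, beside 4295 genes higher and 1896 lower. The 7 genes were chosen with results of these data known, and the p-values measure only the spread between these 4 libraries.

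C1q was unevenly spread over the cells of a gate. In the Lyz2+Ms4a7+ gate the median cell held 95.5, 98.0, 79.0 and 42.0 UMIs of the 3 chains together, while 23.9%, 19.6%, 22.5% and 31.2% of its cells held none. The median cell of the Lyz2+Ms4a7- gate held 0, and cells with at least 10 C1q UMIs were 13%, 14.5%, 15.1% and 11.6% of the gate but carried 96.5%, 97.1%, 96.8% and 93.1% of its C1q UMIs. The C1q level of the Lyz2+Ms4a7- gate thus came from a minority of its cells.

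Cells with any C1q UMI were 76.1%, 80.4%, 77.5% and 68.8% of the Lyz2+Ms4a7+ gate (exact Clopper-Pearson 95% intervals from 73.2% to 78.9%, 77% to 83.4%, 72.8% to 81.8% and 59.2% to 77.3%). T cells, which should lack C1q, gave 21.0%, 19.6%, 18.6% and 13.3% in the T gate. Median depths differed, at 15369.5, 15092.5, 15615 and 11197 UMIs per cell in the Lyz2+Ms4a7+ gate and 8645, 7630, 9199 and 8375.5 in the T gate. After each cell was thinned to 2000 UMIs the shares were 69.2%, 70.3%, 67.5% and 58.7% in the Lyz2+Ms4a7+ gate, 18.3%, 18.6%, 19.8% and 19.0% in the Lyz2+Ms4a7- gate and 9.80%, 6.61%, 8.88% and 5.93% in the T gate. At equal depth the T gate was lowest in each of the 4 libraries. Thinned cells kept the gates drawn on their full counts, so gate membership itself was not set at equal depth. The T gate's C1q level was 693.5, 440.0, 449.2 and 36.1 CPM, and without its cells holding at least 2 *Ms4a7* UMIs (31, 8, 14 and 8 cells), a limit chosen after seeing the data, it was 40.9, 34.2, 77.8 and 27.6 CPM. Whether those cells were doublets was not tested.

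The chains moved together from cell to cell. Over the 872, 616, 351 and 109 cells of the Lyz2+Ms4a7+ gate, Pearson's r of *C1qb* with *C1qc* was 0.89, 0.89, 0.89 and 0.90, and of *C1qa* with *C1qb* 0.87, 0.88, 0.87 and 0.84 (log-scaled counts of cells that share a library and so its depth and free RNA). Against the C1q sum, *Lyz2* gave −0.28, −0.33, −0.34 and −0.42, and *C3ar1* gave 0.01, −0.00, 0.09 and 0.28. In the Ms4a7 alone gate *Lyz2* gave −0.01, −0.14, −0.04 and −0.15, and *C3ar1* gave 0.03, −0.03, 0.01 and −0.17. *Lyz2* is a gating gene, which limits its range in each gate. The ratio of *C1qb* to *C1qa* UMIs was 1.27, 1.20, 1.33 and 1.54 in the Lyz2+Ms4a7+ gate and 1.93, 1.60, 1.83 and 2.36 in the Lyz2+Ms4a7- gate, and the intervals of the gates did not overlap in any library (the widest were 1.46 to 1.63 and 2.15 to 2.60, in *Aire*-/- anti-PD1). The ratio of *C1qc* to *C1qa* was 0.79, 0.75, 0.82 and 0.85 in the Lyz2+Ms4a7+ gate.

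CD45+ cells from tumors with *Ms4a7* but little *Lyz2* also carried much C1q. In the Ms4a7 alone gate the C1q sum was 10062, 9771, 10465 and 10474 CPM, compared with 8765, 9576, 7948 and 5963 CPM in the Lyz2+Ms4a7+ gate. To set these gates side by side with the same lower limit of *Ms4a7*, a test chosen after seeing the data compared the Lyz2+Ms4a7+ cells holding at least 2 *Ms4a7* UMIs with the Ms4a7 alone gate in the 4 tumor libraries. The log2 fold was −0.05 for *C1qa* (SE 0.07, adjusted p = 0.793), −0.09 for *C1qb* (SE 0.06, adjusted p = 0.512) and −0.13 for *C1qc* (SE 0.07, adjusted p = 0.318), and a p that misses the threshold does not show equal levels. *C5ar1* was higher in the cells with more *Lyz2* by 0.40 (SE 0.06, adjusted p = 7.87e-04) and *C3* by 0.54 (SE 0.08, adjusted p = 4.03e-04), so 2 of the 7 genes were higher, beside 2.80% of 10263 genes, and 0 of the 7 were lower, beside 2.77%. These counts rest on single libraries: 287 genes were higher and 284 lower, against 99 and 76 without the *Aire*+/+ isotype library, 177 and 215 without *Aire*+/+ anti-PD1, 202 and 160 without *Aire*-/- isotype, and 476 and 461 without *Aire*-/- anti-PD1. Without *Aire*-/- anti-PD1 *C3ar1* was also called lower (log2 fold −0.18, adjusted p = 0.0370, where its adjusted p over the alternatives ran from 0.0370 to 0.845), and with no library term in the fit neither *C5ar1* (adjusted p = 0.209) nor *C3* (adjusted p = 0.578) passed, where their ranges over the alternatives were 1.17e-07 to 0.209 and 1.82e-11 to 0.578.

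**Figure D1:**
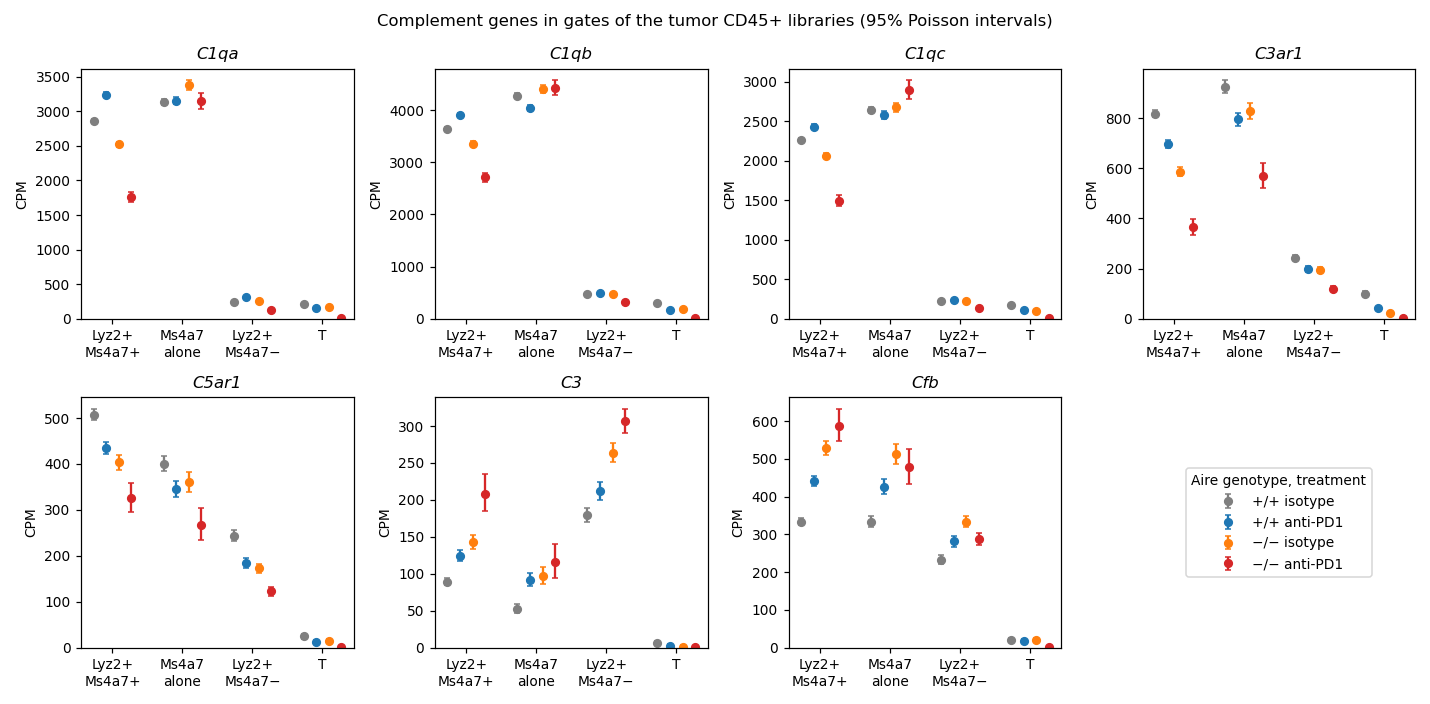
Level of each complement gene in CPM (scaled to all UMIs of the gate, linear axis from 0) in 4 gates of the 4 tumor CD45+ libraries. Points are libraries and bars are exact Poisson 95% intervals. The C1q genes and both receptors are higher in the gates that need *Ms4a7*, *C3* is highest in the Lyz2+Ms4a7- gate, and the T gate is lowest.

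Both receptor genes were also higher in the gates that need *Ms4a7*, by smaller folds. *C3ar1* stood at 818.5, 696.5, 587.0 and 364.7 CPM in the Lyz2+Ms4a7+ gate, at 926.4, 795.6, 827.5 and 569.6 CPM in the Ms4a7 alone gate and at 244.1, 198.3, 194.8 and 120.0 CPM in the Lyz2+Ms4a7- gate. *C5ar1* stood at 507.3, 434.3, 403.7 and 326.0 CPM, at 400.3, 345.2, 359.7 and 267.3 CPM and at 244.0, 184.0, 172.4 and 122.6 CPM in the same gates. In the tumor gate comparison *C3ar1* was higher in the Lyz2+Ms4a7+ gate by a log2 fold of 1.52 (SE 0.06, adjusted p = 4.53e-09) and *C5ar1* by 1.04 (SE 0.07, adjusted p = 1.60e-07), each in 4 of 4 libraries. Before thinning, *C3ar1* was found in more cells of the gate than C1q was, but at equal depth in fewer in 3 of 4 libraries: 97.1%, 93.8%, 91.5% and 77.1% of Lyz2+Ms4a7+ cells held a *C3ar1* UMI, and 74.3%, 63.6%, 59.0% and 48.6% after thinning, where the T gate gave 5.88%, 1.32%, 2.58% and 0.742%.

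*C3* ran the other way. Its level was 89.3, 124.5, 143.2 and 208.5 CPM in the Lyz2+Ms4a7+ gate, 52.5, 91.4, 96.7 and 115.5 CPM in the Ms4a7 alone gate, and 179.5, 211.8, 264.1 and 306.3 CPM in the Lyz2+Ms4a7- gate. The log2 fold between the Lyz2 gates was −0.99 (SE 0.08, adjusted p = 6.47e-07), lower with *Ms4a7* in 4 of 4 libraries. *Cfb* stood at 333.3, 441.4, 529.0 and 588.3 CPM in the Lyz2+Ms4a7+ gate and at 233.0, 281.2, 334.0 and 287.9 CPM in the Lyz2+Ms4a7- gate, a log2 fold of 0.53 (SE 0.08, adjusted p = 1.69e-04), higher in 4 of 4 libraries. In the T gate *C3* was at most 6.02 CPM and *Cfb* at most 20.7 CPM. The component genes thus differed in which gate they favored: *Cfb* was higher in the C1q-rich gate and *C3* in the C1q-poor one.

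Across conditions, C1q in the Lyz2+Ms4a7+ gate was lowest in the *Aire*-/- anti-PD1 tumor. The C1q sum there was 5963 CPM (95% Poisson interval 5832 to 6096), below 7948 CPM in *Aire*-/- isotype (7877 to 8019), 8765 in *Aire*+/+ isotype (8717 to 8813) and 9576 in *Aire*+/+ anti-PD1 (9515 to 9637). As log2 ratios, *Aire*-/- over *Aire*+/+ was −0.14 under isotype (interval −0.16 to −0.13) and −0.68 under anti-PD1 (−0.72 to −0.65), and anti-PD1 over isotype was 0.13 in *Aire*+/+ (0.12 to 0.14) and −0.41 in *Aire*-/- (−0.45 to −0.38). Of the chains, *C1qa* moved most, at −0.88 for *Aire*-/- over *Aire*+/+ under anti-PD1 (−0.94 to −0.82), against −0.53 for *C1qb* and −0.70 for *C1qc*. None of the 7 genes reached a 2-fold ratio in either direction in this gate. Among genes with at least 50 UMIs over the pair of libraries, 1.03% were at least 2-fold higher and 0.878% at least 2-fold lower for *Aire*-/- over *Aire*+/+ under isotype, 2.0% and 5.55% under anti-PD1, 0.485% and 0.206% for anti-PD1 over isotype in *Aire*+/+, and 0.638% and 2.89% in *Aire*-/-.

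That ratio depended on how the gate was drawn. With at least 2 *Ms4a7* UMIs required, the C1q sum for *Aire*-/- over *Aire*+/+ under anti-PD1 was −0.28, and over all cells of the Lyz2+Ms4a7+ and Ms4a7 alone gates with at least 2 *Ms4a7* UMIs, a setting chosen after seeing the data, it was −0.09. With at least 20 *Lyz2* UMIs it was −1.03. Cells with at least 2 *Ms4a7* UMIs made up 87.6%, 86.9%, 79.8% and 56.9% of the Lyz2+Ms4a7+ gate, and their C1q sum was 9426, 10413, 9096 and 8591 CPM. The remaining cells of the gate stood at 2653, 2378, 2085 and 2298 CPM. The 7 monocyte markers of the gate, all detected in every library, summed to 3466 CPM in *Aire*+/+ anti-PD1 and 5653 CPM in *Aire*-/- anti-PD1, and their part in the C1q ratio was not tested. In the Ms4a7 alone gate the C1q ratios were 0.06, 0.10, −0.04 and 0.00 for the same 4 contrasts.

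The receptor genes gave ratios below 0 in all 4 contrasts, in both gates that need *Ms4a7* and in the Lyz2+Ms4a7- gate. *C3ar1* in the Lyz2+Ms4a7+ gate gave log2 ratios of −0.48 and −0.93 for *Aire*-/- over *Aire*+/+ under isotype and anti-PD1 (intervals −0.53 to −0.43 and −1.07 to −0.80) and −0.23 and −0.69 for anti-PD1 over isotype in *Aire*+/+ and *Aire*-/-. *C5ar1* gave −0.33, −0.41, −0.22 and −0.31 for these contrasts. In the Ms4a7 alone gate, where the C1q ratios were small, *C3ar1* gave −0.16, −0.48, −0.22 and −0.54 and *C5ar1* gave −0.15, −0.37, −0.21 and −0.43. In the Lyz2+Ms4a7- gate *C3ar1* gave −0.33, −0.72, −0.30 and −0.70 and *C5ar1* gave −0.50, −0.59, −0.41 and −0.49. The intervals excluded 0 for both receptors in all 4 contrasts in each of these gates.

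*C3* and *Cfb* moved against the receptors in the Lyz2+Ms4a7+ gate. *C3* gave 0.68, 0.74, 0.48 and 0.54 for the contrasts in that order, with intervals of 0.56 to 0.81, 0.55 to 0.93, 0.37 to 0.59 and 0.34 to 0.74, so it was lowest in *Aire*+/+ isotype and highest in *Aire*-/- anti-PD1. *Cfb* gave 0.67, 0.41, 0.41 and 0.15, the last with an interval of 0.04 to 0.27 and of the other sign after thinning (−0.22). In the Lyz2+Ms4a7- gate *C3* gave 0.56, 0.53, 0.24 and 0.21, while *Cfb* gave 0.52, 0.03, 0.27 and −0.21. In that gate the C1q sum was 952.9, 1053, 955.0 and 582.6 CPM and *C1qa* was more than 2-fold lower in *Aire*-/- anti-PD1 than in *Aire*+/+ anti-PD1 (log2 ratio −1.23, interval −1.37 to −1.10), 1 of the 7 genes, beside 0.960% of 7709 genes at least 2-fold lower.

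**Figure D2:**
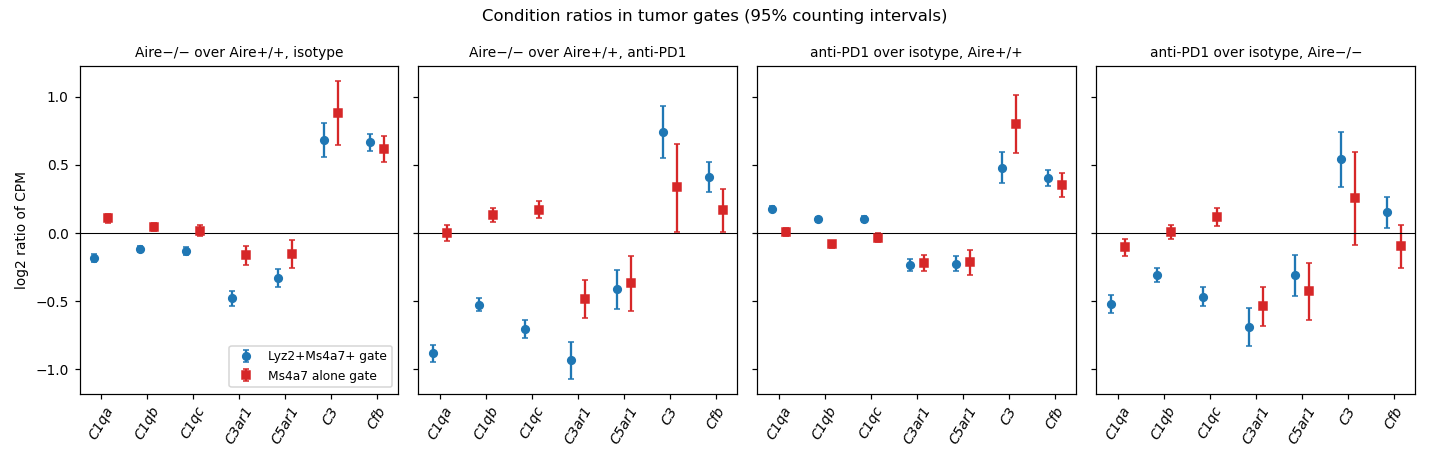
Log2 ratio of CPM of the complement genes for the 4 contrasts between tumor libraries, in the Lyz2+Ms4a7+ gate (circles) and the Ms4a7 alone gate (squares), with 95% intervals of counting error. The C1q genes lie below 0 for both contrasts of *Aire*-/- anti-PD1 in the first gate and near 0 in the other, *C3ar1* and *C5ar1* lie below 0 in both, and *C3* lies above 0 in both except that its interval reaches 0 for anti-PD1 over isotype in *Aire*-/- in the Ms4a7 alone gate.

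Over all cells of a tumor library, the gates' sizes entered as well. The whole-library C1q sum was 5461, 5347, 3763 and 959.1 CPM, a log2 ratio of −2.48 for *Aire*-/- over *Aire*+/+ under anti-PD1 (interval −2.50 to −2.46) and −0.54 under isotype (−0.55 to −0.53). The whole-library *C3* level was 80.9, 102.3, 122.0 and 88.1 CPM and the *Cfb* level 244.5, 292.3, 302.6 and 128.9 CPM. The Lyz2+Ms4a7+ gate held 60.7%, 62.1%, 52.7% and 35.2% of all C1q UMIs, the Ms4a7 alone gate 29.2%, 30.0%, 33.5% and 40.2%, and the Lyz2+Ms4a7- gate 3.25%, 3.50%, 6.35% and 12.3%. Of *C3* UMIs, the Lyz2+Ms4a7- gate held 41.4%, 36.8%, 54.2% and 70.6%. In a whole library, fewer cells of a type and less RNA per cell cannot be told apart. From *Aire*+/+ to *Aire*-/- under anti-PD1, Lyz2+Ms4a7+ cells went from 27.9% to 5.25% of the library. Their C1q sum went from 9576 to 5963 CPM, which is a share of the gate's UMIs and no measure of RNA per cell. Cells with at least 2 *Ms4a7* UMIs went from 86.9% to 56.9% of this gate, so its make-up differed as well.

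**Figure D3:**
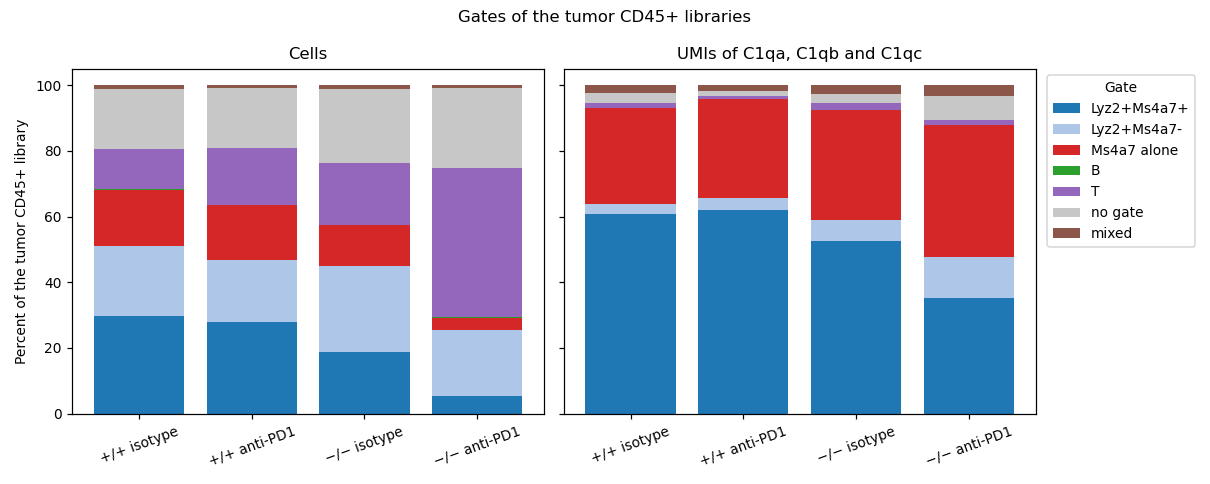
Percent of cells (left) and of the UMIs of *C1qa*, *C1qb* and *C1qc* together (right) in each gate, for the 4 tumor CD45+ libraries. Stacks add up to the whole library. Mixed cells met more than one of the *Lyz2*, *Cd3e* and *Cd79a* limits, and cells with no gate met none. Most C1q UMIs lie in the gates that need *Ms4a7*, which are smallest in the *Aire*-/- anti-PD1 library.

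In the cells recovered from spleens, C1q was scarce. The paper's flow cytometry methods describe enzymes for tumors and mechanical dispersion for spleens. The part of this difference in the tissue values was not tested. The Lyz2+Ms4a7+ gate held 9, 14, 4 and 0 cells there and the Lyz2+Ms4a7- gate 191, 117, 117 and 83, so the tissues were compared in the Lyz2+Ms4a7- gate alone. *C1qa* had 4, 0, 0 and 6 UMIs in it, *C1qb* 22, 0, 7 and 4, *C1qc* 3, 0, 2 and 1, and *C3ar1* 2, 2, 1 and 0. A count of 0 still allows 3 counts, which in *Aire*+/+ anti-PD1 is 3.19 CPM. *C5ar1* was measurable at 34.7, 32.9, 33.2 and 48.7 CPM and *C3* at 303.5, 328.2, 305.6 and 286.4 CPM. *Cfb* stood at 9.11, 6.37, 12.1 and 4.43 CPM, the last from 3 UMIs, no more than a count of 0 allows. The splenic *C3* level was above the tumor level of the gate in 3 of 4 conditions and below it in *Aire*-/- anti-PD1.

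Over the 4 conditions, the fitted log2 fold of tumor over spleen in the Lyz2+Ms4a7- gate was 7.11 for *C1qa*, 6.36 for *C1qb*, 7.66 for *C1qc* and 7.83 for *C3ar1*. Each of these 4 genes had a spleen library at 0 UMIs. *C1qa*, *C1qc* and *C3ar1* passed the count filter through their tumor sums, so a call of lower was not possible for them. *C1qb* had more splenic UMIs, and whether a call of lower was possible for it was not checked. The p-values of these 4 genes are not given. These 4 folds are not exact, since spleen libraries stood at 0, and leaving out a library moved some of them (cause not tested). Without *Aire*-/- anti-PD1 that of *C1qa* was 8.33, and without *Aire*+/+ isotype that of *C1qb* was 7.10. After thinning they were 5.43 for *C1qa*, 5.58 for *C1qb*, 7.59 for *C1qc* and 9.94 for *C3ar1*. *Cfb* was higher in tumors by 5.45 (SE 0.16, adjusted p = 7.77e-13) and *C5ar1* by 2.76 (SE 0.17, adjusted p = 2.78e-09), each in 4 of 4 conditions, and *C3* gave 0.03 (SE 0.12, adjusted p = 0.867). These fits carry TMM factors, which rescale each sum. Scaled by all UMIs of the gate, as the CPM values are, *C3* was lower in tumors by a log2 fold of −0.39 (adjusted p = 8.96e-03). This alternative was chosen after seeing the data, and the adjusted p of *C3* ran from 8.96e-03 to 0.993 over the alternatives. *Cfb* and *C5ar1* were called higher as before, beside 1575 genes higher and 4943 lower of the 9695. The sign and the call of *C3* thus depended on the scaling. *C5ar1*, *Cfb* and *C3* had UMIs in every spleen library. Of these, with the TMM factors and at an adjusted p under 0.05, *C5ar1* and *Cfb* were higher in tumors, beside 27.4% of 9695 genes. None of them was lower, beside 25.3%. The other 4 genes are left out of this count, because each had a spleen library at 0 UMIs. All 4 neutrophil markers had UMIs in this gate in spleens, led by *S100a9* or *S100a8*, and summed to 7374, 7320, 4127 and 32050 CPM there, compared with 657.3, 242.9, 167.9 and 273.7 CPM in tumors, and their part in the tissue differences was not tested.

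Much of the splenic C1q sat in few cells with no gate. These cells held 178, 65, 127 and 88 of the 293, 118, 139 and 202 C1q UMIs of the spleen libraries, and 177, 65, 119 and 86 lay in 8, 3, 3 and 2 cells with at least 10 each. The whole spleen libraries stood at 24.2, 10.8, 12.4 and 16.0 CPM of C1q. The splenic B gate stood at 5.76, 1.76, 0.147 and 0.473 CPM. The splenic Ms4a7 alone gate held 2, 1, 0 and 2 cells, too few to compare. It held 0 C1q UMIs in *Aire*+/+ isotype, 40 in *Aire*+/+ anti-PD1 and 60 in *Aire*-/- anti-PD1.

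Of 45 other complement genes, 31 were too low for the tumor gate test, among them all 7 genes of the terminal pathway (*Hc*, *C6*, *C7*, *C8a*, *C8b*, *C8g* and *C9*). Of the 14 tested, 6 were higher in the Lyz2+Ms4a7+ gate, beside 27.3% of all genes tested, 3 were lower, beside 26.9%, and 5 were not called, with a median log2 fold of 0.31 beside 0.03 over all genes tested and 1.52 over the 7 genes. The highest were *C4b*, a C4 gene of the classical pathway, at 1.41 (SE 0.24, adjusted p = 3.25e-04), *Itgax*, which encodes a chain of complement receptor CR4, at 1.38 (SE 0.09, adjusted p = 1.09e-07), and *C1qbp*, at 1.33 (SE 0.09, adjusted p = 1.46e-07). The genes called lower were *Fcnb*, a ficolin of the lectin pathway, at −1.83 (SE 0.37, adjusted p = 1.15e-03), *Itgb2*, the integrin chain shared by CR3 and CR4, at −0.27 (SE 0.07, adjusted p = 4.11e-03; not called with no library term in the fit, adjusted p = 0.0768, or without TMM factors, adjusted p = 0.187, with a range over the alternatives of 4.71e-05 to 0.187), and *Itgam*, a chain of complement receptor CR3, at −0.15 (SE 0.06, adjusted p = 0.0356). *Itgam* was not called without *Aire*+/+ isotype (−0.12, adjusted p = 0.176), without *Aire*+/+ anti-PD1 (−0.14, adjusted p = 0.150) or without *Aire*-/- isotype (−0.18, adjusted p = 0.0617), and its adjusted p ran from 2.28e-03 to 0.757 over the alternatives. Without TMM factors the fold of *Itgam* had the other sign (0.02), so its direction depended on the scaling. UMIs of *C4b* may include reads of its near-identical neighbor *C4a*. *Fcnb* had few UMIs: in neither gate did any pair of tumor libraries reach the lower limit of UMIs set for ratios between conditions. *C4b* reached that limit in the Lyz2+Ms4a7+ gate but not in the Lyz2+Ms4a7- gate. Each may have passed the count filter through its higher gate alone. Whether *Fcnb* could have been called higher, or *C4b* lower, was not checked.

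Between tissues, 12 of the 45 genes were tested in the Lyz2+Ms4a7- gate. Of these, 5 were higher in tumors, beside 27.4% of all genes tested, 2 lower, beside 25.3%, and 5 not called. Their median log2 fold was 0.26 beside −0.06 over all genes tested. *Cfp*, the alternative pathway stabilizer properdin, was higher by 1.49 (SE 0.11, adjusted p = 2.07e-08), *Itgam* by 0.82 (SE 0.09, adjusted p = 1.27e-06), and *C1ra*, a protease of the C1 complex, by 1.22 (SE 0.43, adjusted p = 0.0278). The genes called lower were *Fcnb* at −1.98 (SE 0.43, adjusted p = 1.32e-03; −1.19 without *Aire*-/- anti-PD1) and *Lrp1* at −0.46 (SE 0.09, adjusted p = 7.05e-04). *C1ra* was not called without *Aire*+/+ isotype (0.91, adjusted p = 0.177), without *Aire*+/+ anti-PD1 (1.15, adjusted p = 0.0666) or without *Aire*-/- isotype (1.27, adjusted p = 0.0686), nor with DESeq2 or without TMM factors, and over all alternatives its adjusted p ran from 0.0152 to 0.177. In the tumor libraries of this gate *Fcnb* stayed under the lower limit of UMIs set for ratios between conditions. *C1ra* met that limit in the isotype pair alone, at 4.55 CPM in *Aire*+/+ and 4.87 CPM in *Aire*-/-. Whether *Fcnb* could have been called higher in tumors, or *C1ra* lower, was not checked.

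In the comparison with the same lower limit of *Ms4a7*, 13 of the 45 genes were tested, with 5 higher in the cells with more *Lyz2*, beside 2.80% of all genes tested, 1 lower, beside 2.77%, and 7 not called (median log2 fold 0.24 beside −0.01 over all genes tested and −0.05 over the 7 genes). *Cfp* was higher by 0.50 (SE 0.06, adjusted p = 1.25e-04), *Itgam* by 0.32 (SE 0.06, adjusted p = 5.63e-03) and *Itgb2* by 0.25 (SE 0.06, adjusted p = 0.0226), and *Itgax* was lower at −0.25 (SE 0.06, adjusted p = 0.0264). Without *Aire*+/+ isotype none of *Itgam* (0.28, adjusted p = 0.147), *Itgb2* (0.21, adjusted p = 0.300) and *Itgax* (−0.28, adjusted p = 0.154) was called. Without *Aire*+/+ anti-PD1 *Itgb2* (0.25, adjusted p = 0.136) and *Itgax* (−0.19, adjusted p = 0.311) missed, and without *Aire*-/- isotype *Itgam* (0.28, adjusted p = 0.0514) and *Itgb2* (0.23, adjusted p = 0.129) did. DESeq2 did not call *Itgax*, the fit without TMM factors did not call *Itgb2*, and with no library term in the fit none of these 4 genes was called. The adjusted p over all alternatives ran from 5.39e-05 to 0.18 for *Itgam*, from 1.10e-03 to 0.693 for *Itgb2* and from 9.65e-03 to 0.531 for *Itgax*.

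Genes whose levels ran most like the complement genes were ranked by Pearson's r of log2(CPM + 10) over the 40 sums of a library and gate with at least 20 cells, among 8728 genes. These sums share libraries and gates, so r is a description. For the mean of the C1q chains the closest were *Tmem171* (0.97), *Ccl12*, *Ccl7*, *Axl* and *Mmp14* (each 0.96). For *C3ar1* they were *Ccl7*, *Dab2* and *Ccl12* (each 0.97), *Stab1* and *Mmp14* (each 0.96). For *C5ar1* they were *Aif1* and *Sdc3* (each 0.97), *Rrbp1*, *Clec5a* and *Rab7b* (each 0.96). For *C3* they were *Fn1* (0.98), *Bach1*, *Klra2* and *Cd302* (each 0.97) and *Ms4a8a* (0.96), and for *Cfb* they were *Cstb*, *Ccl2*, *Il1rn*, *Cd14* and *Mmp14* (each 0.98).

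The C1q genes lie side by side on chromosome 4 and within 18719 bases on one strand, in the order *C1qb*, *C1qc*, *C1qa* by coordinate. Since the chains move together from cell to cell, their start regions were read from the RefSeq promoter table (build GRCm38.p6), which matched 5 of the 7 genes. *C1qa* and *Cfb* were not in the table. The motifs GAGGAAGT, TTCNNNGAA and a pair of GAAA words with any 2 bases between them were searched on both strands in 300 bases per gene and occur in 3.20%, 8.30% and 3.44% of 32851 promoters of that length. Among the 5 promoters 1 match was found: GAGGAAGT on the reverse strand at bases 56 to 63 of *C1qc*, shown in capitals below. The *C1qb* promoter at chr4:136886151-136886450 and the *C1qc* promoter at chr4:136892865-136893164, both on the minus strand and written 5′ to 3′ along the gene, are printed because these neighbors had the highest r from cell to cell in the Lyz2+Ms4a7+ gate of each tumor library.
C1qb: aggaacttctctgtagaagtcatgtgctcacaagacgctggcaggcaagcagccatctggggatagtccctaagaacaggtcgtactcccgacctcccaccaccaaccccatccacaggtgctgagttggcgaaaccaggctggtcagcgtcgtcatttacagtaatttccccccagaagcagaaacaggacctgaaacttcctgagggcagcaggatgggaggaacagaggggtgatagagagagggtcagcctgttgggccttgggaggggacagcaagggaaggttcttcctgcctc
C1qc: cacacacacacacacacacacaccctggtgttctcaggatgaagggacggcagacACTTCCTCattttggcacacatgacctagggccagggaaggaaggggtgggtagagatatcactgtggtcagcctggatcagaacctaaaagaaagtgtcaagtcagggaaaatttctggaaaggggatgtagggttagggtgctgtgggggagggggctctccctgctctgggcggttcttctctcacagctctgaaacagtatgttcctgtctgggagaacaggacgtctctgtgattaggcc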

How the data were processed

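The paper describes droplet libraries of CD45+ cells from MC38 tumors and spleens prepared with the 10X Genomics 3′ kit. It also describes another 10X kit, for RNA and T cell receptor libraries after sorts for CD45+ or CD8+ cells. Which kit gave these counts was not checked. The authors deposited UMI counts per gene and barcode, as whole numbers made with Cell Ranger against build GRCm38, for barcodes called as cells. The members and gene lists were chosen with earlier results of these data known. Rows of 1 symbol were summed. Cells with at least 200 genes and at most 20% mitochondrial UMIs were kept (17668 of 17769 barcodes; median 4413.5 to 12251.5 UMIs per cell by library). No doublet caller was run, and doublets within a gate were not removed. Levels are UMIs of a gene scaled to all UMIs of the gate or library (CPM), with exact Poisson 95% intervals. Ratios have conditional exact intervals and shares Clopper-Pearson intervals.

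Gates were compared within tumor libraries (library as block), and tissues within conditions (condition as block), on UMIs summed per library and gate with edgeR 4.0.16 quasi-likelihood fits in R 4.3.3, TMM factors, filterByExpr and Benjamini-Hochberg adjustment over all genes tested, without the 4 gating genes. Sums needed at least 10 cells. The fit of the tumor gates, and no other, was also run on simulated data. Alternatives were DESeq2 1.42.0, no count filter beyond 1 UMI, no block, each library left out, at least 5 or 20 *Lyz2* UMIs, at least 2 *Ms4a7* UMIs, thinning to 2000 UMIs, stricter cell filters, TMM factors for the ratios between conditions and no cells above the 95th percentile of UMIs. Thinned cells kept the gates drawn at full depth. The comparison with the same lower limit of *Ms4a7* and the gates and scaling named as chosen after seeing the data were added. Of the other complement genes, the 3 highest and the 3 lowest log2 folds with adjusted p under 0.05 in each test are named. Some genes of the planned lists are not reported here, and list counts and sums leave them out. Python 3.11.15, numpy 2.4.6, scipy 1.17.1 and pandas 2.3.3 were used. Differences between conditions were not tested, because each condition had 1 library per tissue.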

Additional observations from a re-analysis of the deposited data

Results flagged for a closer look

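The ratio of anti-PD1 over isotype in tumors had opposite signs in the 2 genotypes, with both counting intervals away from 0, for several genes, and the difference was not tested in any of them. In the Lyz2+Ms4a7+ gate the log2 ratio was 0.18 in *Aire*+/+ and −0.52 in *Aire*-/- for *C1qa*, 0.10 and −0.31 for *C1qb*, and 0.10 and −0.47 for *C1qc*. Some alternatives turned these signs: in *Aire*-/-, *C1qb* was 0.00963 with *Ms4a7* at least 2, and with that limit at any *Lyz2* *C1qb* was 0.0418 and *C1qc* 0.035, while *C1qc* in *Aire*+/+ was −0.00973 after thinning. In the Lyz2+Ms4a7- gate it was 0.33 and −0.95 for *C1qa*, 0.11 and −0.74 for *C1qc*, and 0.27 and −0.21 for *Cfb*, where *C1qc* in *Aire*+/+ turned to −0.041 with *Lyz2* at least 20, −0.0438 with *Ms4a7* at least 2 and −0.072 after thinning. Over whole tumor libraries it was 0.0246 and −2.10 for *C1qa*, 0.34 and −0.47 for *C3*, and 0.26 and −1.23 for *Cfb*. The ratio of *Aire*-/- over *Aire*+/+ over whole tumor libraries had opposite signs under isotype and anti-PD1, at 0.59 and −0.22 for *C3* and 0.31 and −1.18 for *Cfb*, and the difference was not tested.

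C1q UMIs were also counted in the CD8+ sorts, which the comparisons did not use and which should lack C1q. The sum of *C1qa*, *C1qb* and *C1qc* was 67.7, 98.5, 168.0 and 65.8 CPM in the tumor CD8+ libraries and 0.447, 0.835, 0.513 and 2.52 CPM in the splenic CD8+ libraries, each above the 3 counts that a count of 0 allows. Few cells carried most of the tumor UMIs: 7, 14, 21 and 19 cells with at least 10 C1q UMIs held 2132, 2280, 3365 and 966 of the 2381, 2665, 3766 and 1531 C1q UMIs.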

How the results depend on the processing

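The 7 genes kept their side of the threshold in the tumor gate test and the tissue test under all 12 alternatives of each, and kept their direction, except *C3* between tissues (log2 fold −0.39 to 0.16, adjusted p 8.96e-03 to 0.993), which was called lower without TMM factors. For *C1qa*, *C1qc* and *C3ar1* the tissue test could not have called lower, since they passed the count filter through their tumor sums. Whether it could have called *C1qb* lower was not checked. Scaling by all UMIs without TMM factors, chosen after seeing the data, gave 4295 genes higher in the tumor gate test and 1575 higher and 4943 lower in the tissue test, and *Itgam* changed sign in the tumor gate test (0.0221). Thinning to 2000 UMIs tested fewer genes, 7065 and 6717, and gave 1121 higher and 1364 lower in the tumor gate test and 1431 higher and 1160 lower in the tissue test, where DESeq2 gave 1592 lower (cause not tested). The test with the same lower limit of *Ms4a7* gave 156 higher and 108 lower with DESeq2, 20 and 15 with no block, 436 lower with no filter beyond 1 UMI, and 99 to 476 higher and 76 to 461 lower with 1 library left out. The spleen gate test and the tissue test of the Lyz2+Ms4a7+ gate could not be run, since 1 library pair had at least 10 cells on both sides. With *Lyz2* at least 5, 2 pairs could be used, and 13 genes were higher and 23 lower between splenic gates, and 918 and 484 between tissues. The stricter cell filter changed no C1q ratio of the Lyz2+Ms4a7+ gate, and the whole-library C1q levels held with no cell filter. Ratios of the C1q sum of that gate moved beyond their counting intervals as follows (cause not tested). For *Aire*-/- over *Aire*+/+ under isotype they were −0.0853 (*Lyz2* at least 5), −0.175 (*Lyz2* at least 20), −0.0514 (*Ms4a7* at least 2), −0.182 (thinned), −0.22 (without the top 5% of cells by UMIs) and −0.00456 (*Ms4a7* at least 2 at any *Lyz2*, outside the T, B and mixed gates, chosen after seeing the data). Under anti-PD1 they were −0.52, −1.03, −0.28, −0.45, −0.60 and −0.0886 in that order, and −0.63 with TMM factors. For anti-PD1 over isotype in *Aire*+/+ they were 0.18 (*Lyz2* at least 20), 0.14 (*Ms4a7* at least 2), 0.0618 (thinned), 0.0692 (without the top 5%), 0.0819 (any *Lyz2*) and 0.15 (TMM), and in *Aire*-/- −0.30 (*Lyz2* at least 5), −0.68, −0.0824, −0.21, −0.31, −0.00205 and −0.35. For the Lyz2+Ms4a7- gate they were, for *Aire*-/- over *Aire*+/+, −0.0724 (*Lyz2* at least 5), −0.125 (*Lyz2* at least 20), −0.148 (*Ms4a7* at least 2) and −0.181 (thinned) under isotype and −0.745 (*Ms4a7* at least 2), −0.581 (thinned) and −0.750 (without the top 5%) under anti-PD1, and for anti-PD1 over isotype 0.0765, 0.0531, 0.0495 and, of the other sign, −0.0269 in *Aire*+/+ (order as under isotype), and −0.619 (*Lyz2* at least 20), −0.548 (*Ms4a7* at least 2), −0.427 (thinned) and −0.604 (without the top 5%) in *Aire*-/-. Ratios of single genes that changed sign in the Lyz2+Ms4a7+ gate were *C1qb* for *Aire*-/- over *Aire*+/+ under isotype (0.00138 at any *Lyz2*), *C1qc* for anti-PD1 over isotype in *Aire*+/+ (−0.00973 thinned), and, for anti-PD1 over isotype in *Aire*-/-, *C1qb* (0.00963 with *Ms4a7* at least 2 and 0.0418 at any *Lyz2*), *C1qc* (0.035 at any *Lyz2*) and *Cfb* (−0.22 thinned). *C1qc* of the Lyz2+Ms4a7- gate changed sign for anti-PD1 over isotype in *Aire*+/+ with *Lyz2* at least 20 (−0.041), *Ms4a7* at least 2 (−0.0438) and thinning (−0.072). Shares of cells with C1q were lower at 2000 UMIs per cell: 69.2%, 70.3%, 67.5% and 58.7% of the Lyz2+Ms4a7+ gate and 18.3%, 18.6%, 19.8% and 19.0% of the Lyz2+Ms4a7- gate.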
